A study of Homo sapiens with 42 samples.

Results

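In MV4;11 leukaemia cells treated with the ENL degrader MS41, 28 genes had less RNA than in DMSO at 6 h and more than in DMSO at 24 h. They were selected on that pattern among 8725 protein-coding genes with a mean of at least 8 CPM (a count per 1000000 counts of the library) over the 12 DMSO and MS41 libraries, out of 58721 genes in the table. The measure was d, the mean of log2(CPM + 1) over 3 MS41 libraries minus the mean over 3 DMSO libraries. A member needed a d of -0.15 or less at 6 h, a d of 0.15 or more at 24 h, and no overlap between the groups at either time. On its own, the 6 h condition held for 823 genes (9.43% of the 8725) and the 24 h condition for 2472 (28.3%). The 2 directions in these 12 libraries are therefore the selection itself and are given without a test.

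The study sequenced RNA from human leukaemia lines after removal or inhibition of ENL. MV4;11 is a myelomonocytic line and SEMK2 a B-precursor line, and both carry a fusion of KMT2A (MLL) with AF4. Wild-type MV4;11 cells received DMSO, 100 nM MS41, 100 nM MS41N or 100 nM PFI-6 for 6 h or 24 h, with 3 libraries in each of the 8 groups. MS41 is the degrader, MS41N its control compound, and PFI-6 an inhibitor of the YEATS domain of ENL. Wild-type SEMK2 cells received DMSO or 100 nM MS41 (3 libraries each), and which treatment time applied is not stated. MV4;11 cells with a control guide or either of 2 ENL guides (labelled ENL KO) gave 2 libraries per guide, and neither clonality nor the day of harvest is stated. The in vivo arm held 3 vehicle and 3 MS41 libraries of MV4;11 cells, made with a low-input kit, and its dose, time and host are not given. The labels do not say whether libraries of a group came from separate cultures, so p-values measure only the spread between these libraries, which may be technical.

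ENL, encoded by MLLT1, reads acylated histones through its YEATS domain and brings the super elongation complex and DOT1L to active genes. In leukaemias with a KMT2A fusion this machinery keeps a progenitor programme transcribed. Myeloid maturation brings in surface receptors such as TLR2 and the fucosylated antigen CD15, which FUT4 makes.

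The promoters of FGL2, ST8SIA4 and FUT4, the 3 genes that mark the set, are shown because the members were picked for moving together. Each is the 150 bases just before the first annotated start, read 5′ to 3′ on the gene's strand from RefSeq (GRCh38.p14), with matches to the searched motifs in capitals. They lie at chr7:77199849-77199998 (minus strand), chr5:100903283-100903432 (minus strand) and chr11:94543690-94543839 (plus strand).
FGL2: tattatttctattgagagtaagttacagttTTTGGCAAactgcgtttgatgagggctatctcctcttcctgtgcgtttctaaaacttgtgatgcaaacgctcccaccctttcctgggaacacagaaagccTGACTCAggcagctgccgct
ST8SIA4: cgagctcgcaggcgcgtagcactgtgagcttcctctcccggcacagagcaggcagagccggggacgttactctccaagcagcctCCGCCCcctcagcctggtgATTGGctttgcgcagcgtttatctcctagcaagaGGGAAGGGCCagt
FUT4: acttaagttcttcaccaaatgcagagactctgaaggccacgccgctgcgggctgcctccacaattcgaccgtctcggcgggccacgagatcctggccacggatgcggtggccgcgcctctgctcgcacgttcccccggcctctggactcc

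The FGL2 stretch held an AP-1 match (TGANTCA) that began 20 bases before the start and a C/EBP match (TTNNGCAA) 120 bases before it. ST8SIA4 held a GC box (GGGCGG, on the other strand) at 66 bases, a CCAAT box (CCAAT, on the other strand) at 47 and a match to the NF-kB pattern at 13. FUT4 held none of the 12 motifs in its stretch. No motif was thus common to the 3 printed stretches. Over 250 bases before to 50 after the start, 25 members had a RefSeq entry (SKI and IL17RA were among those without), beside 7104 of the 8725 eligible genes and 35116 promoters in all. AP-1 matches were in 20% of the members' windows (5 genes: FGL2, DLX1, CFLAR, CLEC2D and SERPINB8), 6.095% of eligible windows and 7.709% of all. The GC box was in 72%, 77.96% and 44.95%, CCAAT in 40%, 44.03% and 34.61%, and the NF-kB pattern in 80%, 79.17% and 58.67%. C/EBP was in 16%, 10.04% and 10.46%, the E box CACGTG in 20%, 13.64% and 7.256%, and the ETS core GGAAGT in 32%, 36.88% and 22.79%. The CRE core TGACGT was in 0 of 25 member windows, 15.09% of eligible and 7.982% of all. TATAAA, STAT (TTCNNNGAA), MEIS (TGACAG) and the interferon element were in 8%, 8%, 16% and 4% of member windows, beside 7.559%, 8.277%, 16.78% and 3.941% of eligible ones. Both strands were searched and overlapping matches were kept. These shares describe letters in a window, and with 25 windows 1 gene is 4%.

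The RNA of ENL itself says little about a compound that acts on the protein. MLLT1 stood at 130.5, 124.3 and 122.5 CPM with DMSO and at 119.5, 113.3 and 120.5 CPM with MS41 at 6 h, and at 125.2, 124.0 and 131.6 against 111.1, 109.9 and 109.2 CPM at 24 h, without overlap at either time. With the control guide it stood at 226.9 and 238.5 CPM, with the first ENL guide at 184.6 and 188.6, and with the second at 123.9 and 128.8. All 4 ENL-guide libraries were thus below both controls. Total counts, in units of 1000000, were 102.3 to 156.5 per MV4;11 compound library, 155.9 to 230.6 in SEMK2, 77.22 to 87.81 for the guides and 99.49 to 126.7 in vivo. The MV4;11 compound libraries held the myeloid markers CD33, LYZ, SPI1, FLT3, CD4 and CSF1R, while CD14 (at most 0.3008 CPM) and CD68 (at most 0.3396 CPM) were near 0. SEMK2 held B-lineage markers such as CD22, PAX5 and EBF1, and 4 of the 12 listed (MS4A1, BLNK, DNTT and CD24) had medians below 1 CPM there. In the MV4;11 compound libraries 10 of 12 B-lineage, 12 of 14 T and NK, 10 of 13 erythroid and megakaryocyte and 10 of 12 stromal and endothelial markers had medians below 1 CPM. The stromal and endothelial sum was 88.43 to 89.43 CPM with DMSO and 196.3 to 202.0 CPM with MS41 at 24 h, and 124.7 to 128.0 against 141.1 to 151.7 CPM at 6 h. The T and NK sum, mostly NKG7 and NCAM1 with CD3D at most 0.02345 CPM, was 8.147 to 9.724 against 18.25 to 19.56 CPM at 24 h and 11.18 to 12.82 against 13.76 to 14.34 CPM at 6 h. The B-lineage sum was 4.329 to 4.911 against 6.664 to 7.041 CPM at 6 h and overlapped at 24 h. The erythroid and megakaryocyte sum was 13.2 to 14.43 against 15.11 to 16.37 CPM at 6 h and 11.58 to 11.83 against 13.53 to 14.45 CPM at 24 h. PECAM1, also a leukocyte gene, ranged from 83.64 to 196.7 CPM and made up most of the stromal and endothelial sum, while COL1A1 was at most 0.1787 CPM. The share of counts from mitochondrial genes was 5.564 to 7.085% with MS41 and 5.489 to 5.632% with DMSO at 6 h, and 5.864 to 7.039% against 5.196 to 5.406% at 24 h. The part of these marker levels and shares in the members' pattern was not tested. In bulk RNA, fewer cells that express a gene and less RNA per cell cannot be told apart.

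**Figure D1:**
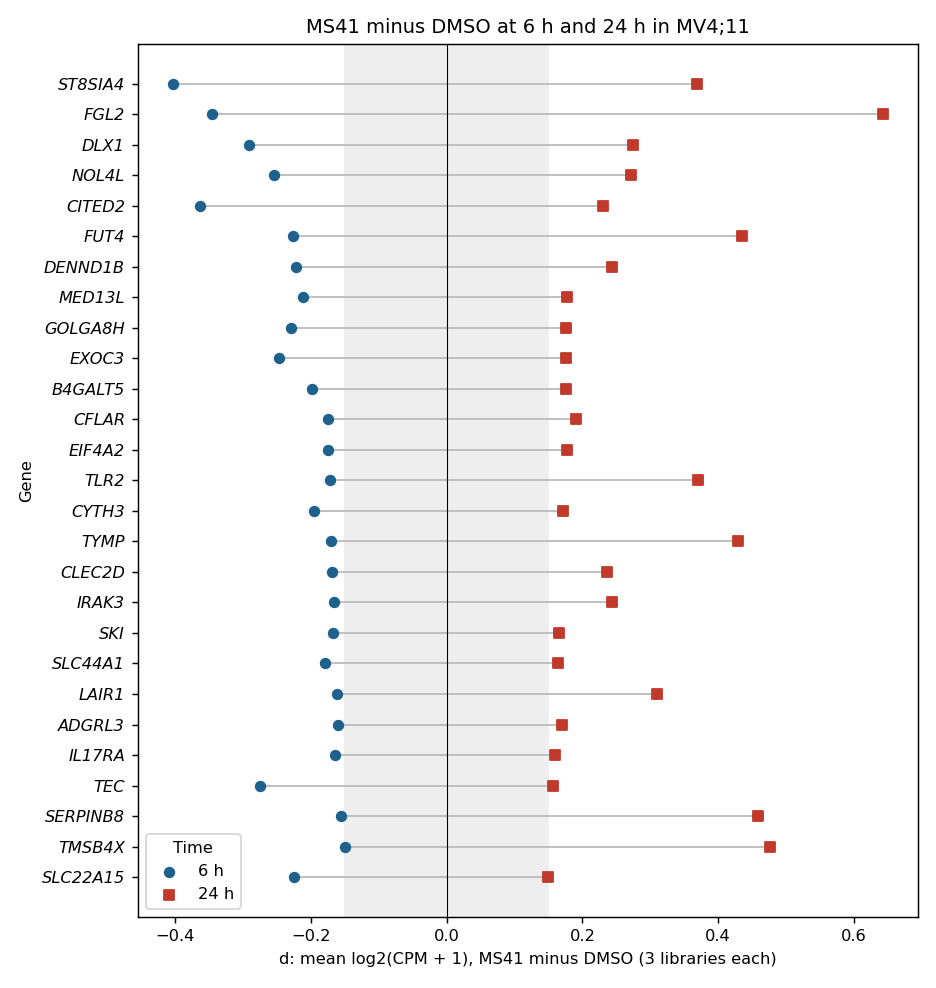
Difference between MS41 and DMSO (d, on the log2(CPM + 1) scale, x axis) for each of 27 of the 28 genes (y axis, ordered by the smaller of the 2 absolute differences), with circles for 6 h, squares for 24 h and the excluded range of -0.15 to 0.15 in grey. All circles lie left and all squares right of the grey band because the genes were selected so, and FGL2 (-0.35 and 0.64) and ST8SIA4 (-0.40 and 0.37) span the widest ranges.

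Across the members d ran at a median of -0.189 at 6 h and 0.233 at 24 h, beside 0.039 and -0.009 over all 8725 eligible genes. The members nearest the threshold were SLC22A15 (-0.22 and 0.15), TMSB4X (-0.15 and 0.48) and SERPINB8 (-0.16 and 0.46). Just outside it were ITGAL (-0.1933 and 0.149) and SMAD3 (-0.1427 and 0.3833), so the threshold passes between values that are close. The choice of library scaling matters for who is inside. With TMM-scaled libraries 34 genes met the rule and 15 of the 28 were among them, and with DESeq2 size factors 36 and 15. With a trend on GC content removed per library, 42 genes met it, 23 of them members. With TMM the 6 h condition held for 1498 genes in place of 823, and the 24 h condition for 2067 in place of 2472. TMM factors of the 3 MS41 libraries at 6 h were 1.043, 1.027 and 1.056. At 24 h the factors were 1.021, 0.9983 and 1.028 with MS41 and 0.978, 0.9774 and 0.9923 with DMSO. Among the 15 kept under all 3 scalings were ST8SIA4, FGL2, DLX1, NOL4L, CITED2, FUT4, DENND1B, TLR2, TYMP, CLEC2D, IRAK3, LAIR1, SERPINB8 and TMSB4X. When each of the 12 libraries was left out in turn, 23 to 32 genes met the rule, 13 members stayed in every time, and FGL2, ST8SIA4 and FUT4 were among the 13.

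Of the members, 3 encode enzymes that build glycans. ST8SIA4, a polysialyltransferase (ENSG00000113532, hg38 chr5:100806935-100903266, 5 exons, minus strand), stood at 94.77, 93.78 and 95.94 CPM with DMSO at 6 h and at 71.0, 71.73 and 71.67 CPM with MS41. At 24 h it stood at 79.13, 82.17 and 75.94 CPM with DMSO and at 105.8, 103.2 and 98.29 CPM with MS41. Every MS41 library was below every DMSO library at 6 h and above every one at 24 h, as the selection asked. The MS41N and PFI-6 libraries, at 88.26 to 92.87 CPM at 6 h and 79.01 to 83.04 CPM at 24 h, also lay above MS41 at 6 h and below it at 24 h. FUT4, the fucosyltransferase that makes the CD15 antigen (ENSG00000196371, chr11:94543840-94549898, 1 exon, plus strand), stood at 215.9, 230.5 and 230.0 CPM with DMSO and at 191.9, 191.8 and 193.4 CPM with MS41 at 6 h. At 24 h DMSO gave 149.5, 158.5 and 154.5 CPM and MS41 gave 206.5, 204.7 and 215.7 CPM. The FUT4 level in DMSO had thus dropped between the 2 times, and the level in MS41 libraries had not. FUT4 lies over PIWIL4, which was itself expressed, and the strand setting of the counting is not stated, so their reads may be partly shared. B4GALT5, a galactosyltransferase of glycolipid chains, stood at 163.0, 164.1 and 167.2 CPM (DMSO) against 145.2, 140.0 and 145.0 CPM (MS41) at 6 h, and at 168.0, 167.5 and 165.8 against 191.4, 188.4 and 186.9 CPM at 24 h. Its membership, unlike that of ST8SIA4 and FUT4, was lost with TMM and DESeq2 scaling.

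The other genes of these families moved in both directions. Of 21 other tested sialyl- and fucosyltransferases, 6 were called higher and 3 lower with MS41 at 6 h, and 7 higher and 6 lower at 24 h (edgeR quasi-likelihood, Benjamini-Hochberg adjusted p below 0.05). Over all 22711 genes tested the same calls were made for 12.2% (higher) and 13.8% (lower) at 6 h, and for 21.4% and 22.9% at 24 h. ST3GAL6, a sialyltransferase named after its values were seen, was higher at both times, with log2 fold changes of 0.71 ± 0.06 (SE, n = 3 per group, edgeR adjusted p = 8.76e-13) and 1.97 ± 0.06 (edgeR adjusted p = 5.75e-29). A list of 43 other glycan genes held N- and O-glycan enzymes. It also held enzymes of sulfated glycans and of sialic acid synthesis, and the transporters SLC35A1 and SLC35C1. Of the 43, 11 were higher and 7 lower at 6 h, and 19 higher and 12 lower at 24 h.

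**Figure D2:**
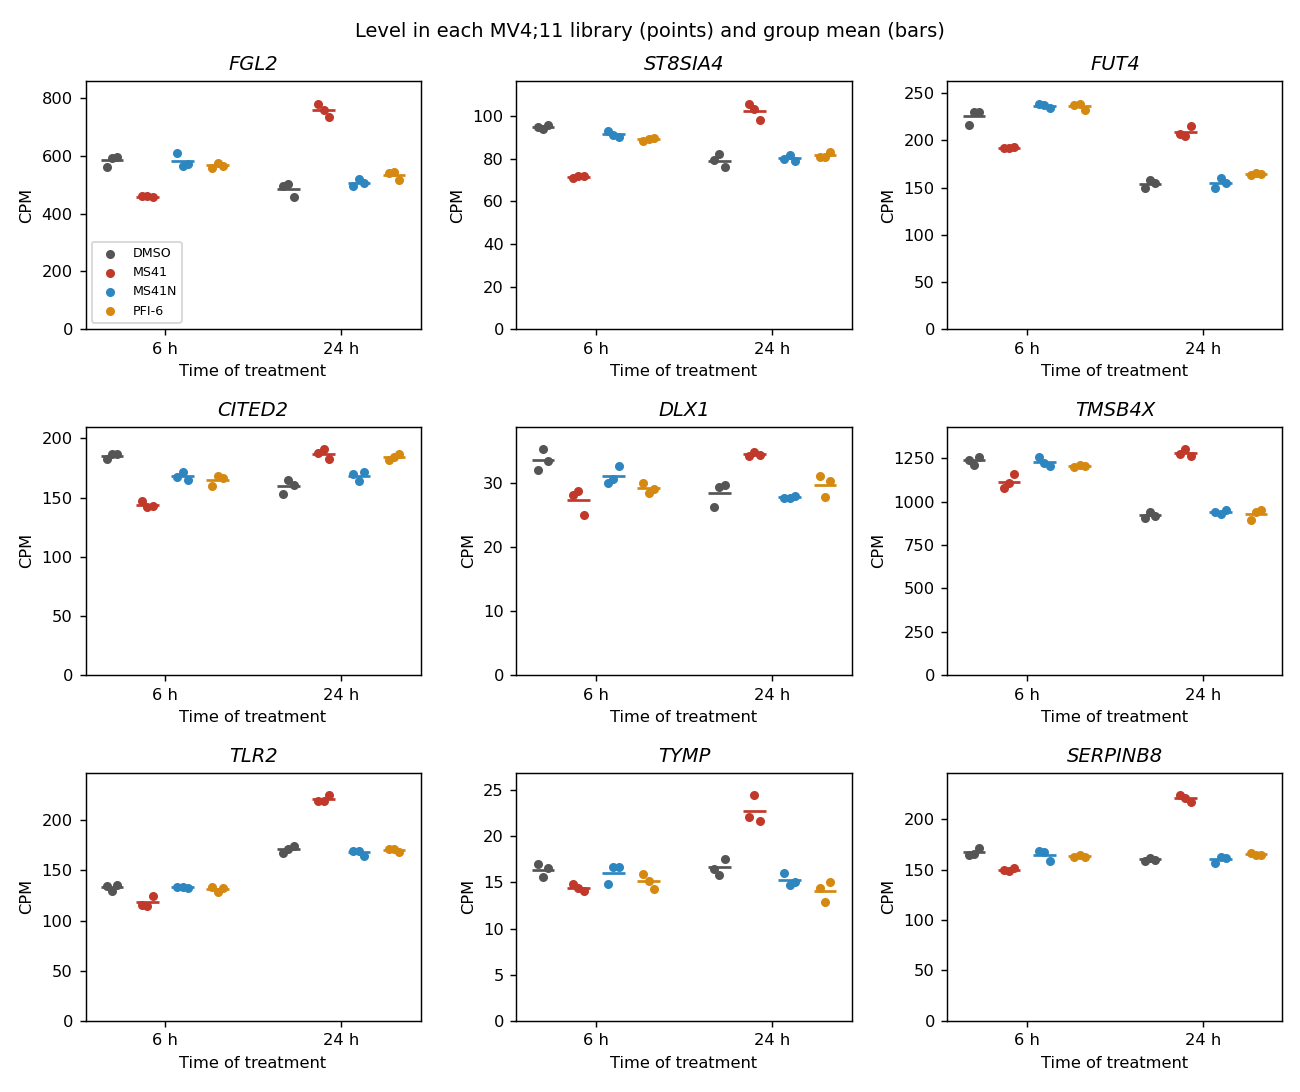
Level in CPM (y axis, from 0) of 9 of the 28 genes in each MV4;11 library, by treatment time (x axis), with 1 point per library (3 per group), a bar at the group mean, and DMSO in grey, MS41 in red, MS41N in blue and PFI-6 in orange. The MS41 mean is the lowest at 6 h and the highest at 24 h in each panel, while FUT4 and FGL2 in the other 3 treatments are lower at 24 h than at 6 h and TLR2 is higher.

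Another 7 members act in immune signalling or recognition. FGL2, a fibrinogen-like immunoregulatory protein (ENSG00000127951, chr7:77193371-77199848, 2 exons, minus strand), stood at 562.0, 594.6 and 596.6 CPM with DMSO and at 460.3, 459.8 and 458.4 CPM with MS41 at 6 h. At 24 h DMSO gave 494.4, 502.5 and 458.7 CPM and MS41 gave 781.3, 758.1 and 735.0 CPM. It had the largest d of the set at 24 h, 0.64. TLR2, the receptor for bacterial lipoproteins (chr4:153684070-153705702), stood at 134.7, 129.4 and 135.7 CPM with DMSO and at 115.9, 114.4 and 124.3 CPM with MS41 at 6 h, then at 167.3, 171.2 and 174.8 against 219.2, 219.6 and 225.1 CPM at 24 h. TLR2 differs from FGL2 in that DMSO cells gained it over time. IRAK3, a kinase-like inhibitor of Toll-like receptor signalling, stood at 209.3, 211.7 and 210.5 against 178.9, 185.5 and 198.5 CPM at 6 h and at 234.0, 237.5 and 232.7 against 280.9, 271.7 and 281.8 CPM at 24 h. LAIR1, an inhibitory collagen receptor of leukocytes, had d values of -0.16 and 0.31. IL17RA, the receptor chain for interleukin 17, had -0.16 and 0.16, and CLEC2D, the ligand of an inhibitory receptor of NK cells, -0.17 and 0.24. TEC, a cytoplasmic tyrosine kinase, had -0.28 and 0.16.

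FGL2 and TLR2 also belong to a list of 48 myeloid maturation genes, named with earlier results of these data known. Among 40 others tested, 21 were higher and 4 lower with MS41 at 6 h, and 35 higher and 1 lower at 24 h. The list's median log2 fold change was 0.232 at 6 h and 1.21 at 24 h, beside 0.022 and 0.024 over all genes tested. The directions of FGL2 and TLR2 themselves were fixed by the selection.

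Of the next 5 members, 4 regulate transcription. CITED2, a coactivator that binds CBP and p300 (ENSG00000164442, chr6:139371807-139374620, 2 exons), stood at 182.2, 187.0 and 186.4 CPM with DMSO and at 146.8, 141.7 and 142.6 CPM with MS41 at 6 h. At 24 h the values were 152.9, 164.7 and 160.4 CPM (DMSO) and 187.8, 190.7 and 182.6 CPM (MS41). PFI-6 libraries gave 159.8, 168.3 and 166.2 CPM at 6 h and 181.5, 184.3 and 187.2 CPM at 24 h. At 24 h the PFI-6 libraries of CITED2 overlapped those of MS41 and lay above DMSO. DLX1, a homeobox factor (chr2:172084740-172089677), stood at 32, 35.2 and 33.37 against 28.1, 28.66 and 24.98 CPM at 6 h and at 26.26, 29.31 and 29.58 against 34.2, 34.85 and 34.39 CPM at 24 h. MED13L, a subunit of the Mediator kinase module, had d values of -0.21 and 0.18, and SKI, a corepressor of SMAD factors, -0.17 and 0.17. NOL4L, the member of this group without a stated role, stood at 21.09, 21.32 and 20.56 against 16.1, 18.0 and 18.26 CPM at 6 h, and at 28.52, 28.34 and 28.73 against 34.56, 33.69 and 35.78 CPM at 24 h. SKI and MED13L were inside the rule with library totals and outside it with TMM or DESeq2 scaling.

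A further 12 members cover signalling, survival, trafficking, transport and metabolism. CYTH3, an exchange factor for ARF proteins, had d values of -0.20 and 0.17. CFLAR, an inhibitor of caspase 8, stood at 124.6, 125.5 and 120.5 against 106.3, 105.8 and 116.0 CPM at 6 h and at 113.7, 115.3 and 116.1 against 132.7, 125.5 and 136.2 CPM at 24 h. TMSB4X, which binds actin monomers, was the second most abundant member, with 1241.0, 1214.0 and 1259.0 against 1082.0, 1107.0 and 1158.0 CPM at 6 h and 904.8, 942.1 and 918.3 against 1278.0, 1302.0 and 1266.0 CPM at 24 h. For SERPINB8, an inhibitor of serine proteases, the 24 h values were 158.8, 161.9 and 159.9 CPM with DMSO and 223.7, 221.2 and 217.0 CPM with MS41. TYMP, thymidine phosphorylase, stood at 17.04, 15.54 and 16.57 against 14.79, 14.43 and 14.11 CPM at 6 h and at 16.5, 15.83 and 17.54 against 22.07, 24.45 and 21.69 CPM at 24 h. DENND1B, an exchange factor for a RAB protein, had d values of -0.22 and 0.24, EXOC3, an exocyst subunit, -0.25 and 0.18, and EIF4A2, a translation initiation helicase, -0.17 and 0.18. SLC44A1, a choline transporter and the most abundant member at a mean of 1550.0 CPM, had -0.18 and 0.16. SLC22A15, a solute carrier, and ADGRL3, an adhesion receptor of the latrophilin family, had 24 h values of 0.15 and 0.17. GOLGA8H, the least abundant at 9.603 CPM, has near-identical copies, so its counts are uncertain. EIF4A2 lies over RFC4 and TYMP over ODF3B, each with at least 10% of the member's level.

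**Figure D3:**
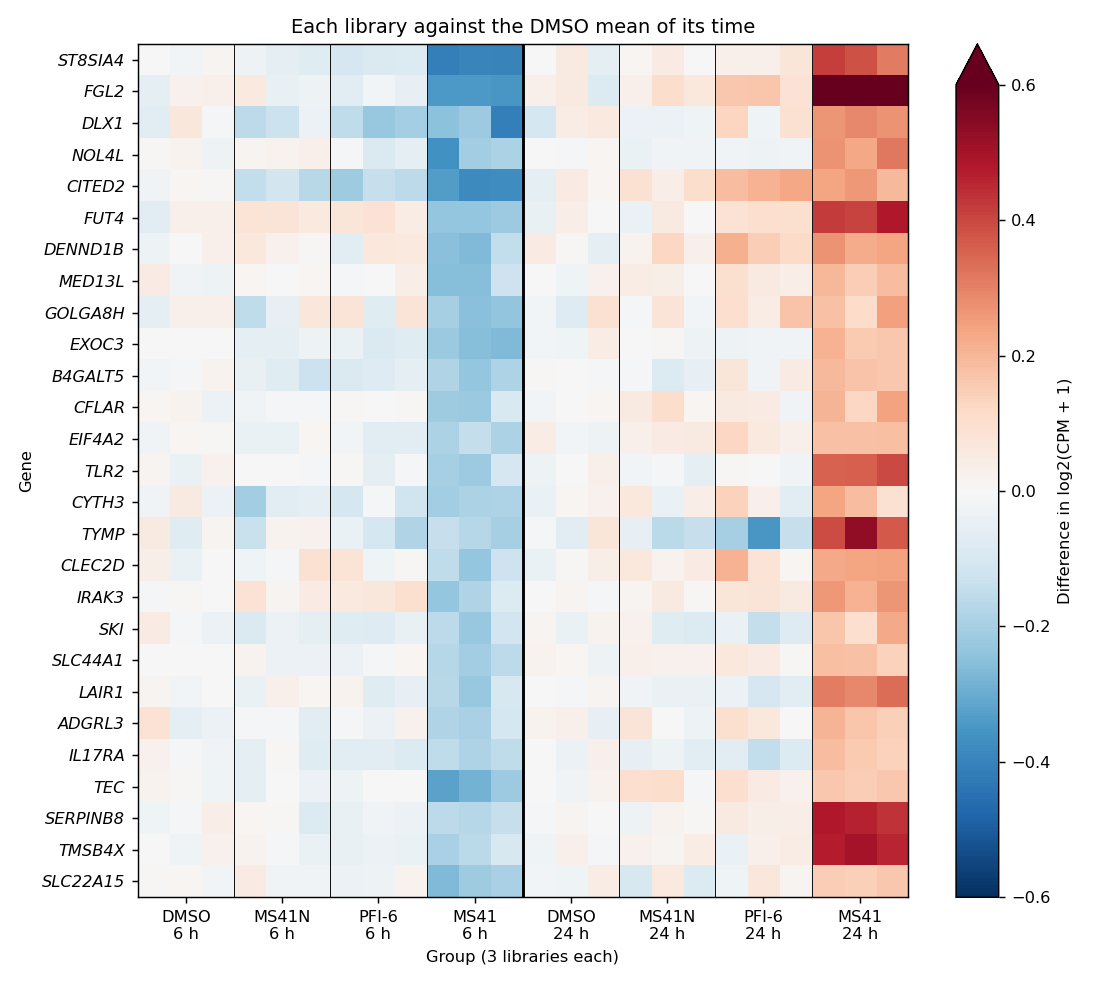
Difference in log2(CPM + 1) of each MV4;11 library (columns, 3 per group, 6 h left and 24 h right of the thick line) from the DMSO mean of the same time, for 27 of the 28 genes (rows), with blue below and red above that mean. MS41 columns are blue in every row at 6 h and red in every row at 24 h, as selected, and the MS41N and PFI-6 columns are pale apart from rows such as CITED2, DLX1 and TYMP.

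The libraries of the other compounds were not used to choose the members, although their comparisons with MS41 or DMSO share libraries with the selection. In 25 of 28 members all 3 MS41 libraries were below all 9 other libraries at 6 h, the exceptions being DLX1, CYTH3 and TYMP. In 25 of 28 all 3 were above all 9 others at 24 h, the exceptions being CITED2, GOLGA8H and CYTH3. The same positions were found for 12.8% and 31.2% of the 8725 eligible genes. The selection fixed the DMSO part of both counts and used the MS41 libraries in them, so neither count is a test. In a fit over all 24 libraries (edgeR, TMM scaling) the log2 fold change of MS41 against DMSO ranged from -0.473 to -0.216 at 6 h and from 0.106 to 0.596 at 24 h. Against MS41N, which shares the MS41 libraries, all 28 values were below 0 at 6 h (median -0.242) and above 0 at 24 h (median 0.162). MS41N against DMSO gave medians of -0.026 and 0.019, and PFI-6 against DMSO -0.047 and 0.051. All of these comparisons share DMSO or MS41 libraries with the selection, so their signs are given as values only.

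PFI-6 against MS41N compares libraries outside the 12 and matches dose and time. The fit estimated spread and scaling over all 24 libraries, so its SEs, intervals and p-values also draw on the 12. At 6 h no member was called by edgeR or DESeq2 (0.0132% of genes were by edgeR). By edgeR, 0 of 28 members and 1393 of 22711 genes had an unadjusted p under 0.05 at 6 h. The members' fold changes ran from -0.095 to 0.076 on the log2 scale. At 24 h 1 member was called, CITED2, higher with PFI-6 by 0.14 ± 0.03 (log2 fold change ± SE, n = 3 per group, edgeR adjusted p = 0.0347, 95% interval 0.079 to 0.196). Among all genes 0.044% were called higher and 0.0616% lower. At 24 h 6 of 28 members and 2738 of 22711 genes had an unadjusted edgeR p under 0.05. DESeq2 called CITED2 and FUT4 among 183 genes in all, where edgeR called 24. The CITED2 call was lost in 5 of the 6 fits that left out 1 library (edgeR adjusted p of 0.0331 to 0.292). Below the threshold were FUT4 at 0.10 (95% interval 0.041 to 0.15), DENND1B at 0.11 (0.040 to 0.178) and FGL2 at 0.08 (0.013 to 0.149). The difference between the times was tested as an interaction, and no gene of all those tested was called (0%). CITED2 came to 0.17 (95% interval 0.086 to 0.252, edgeR adjusted p = 0.393) and DLX1 to 0.20 (0.060 to 0.347, edgeR adjusted p = 0.996). By edgeR, 6 of 28 members and 1063 of 22711 genes had an unadjusted p under 0.05. DESeq2 called no member in the interaction either.

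**Figure D4:**
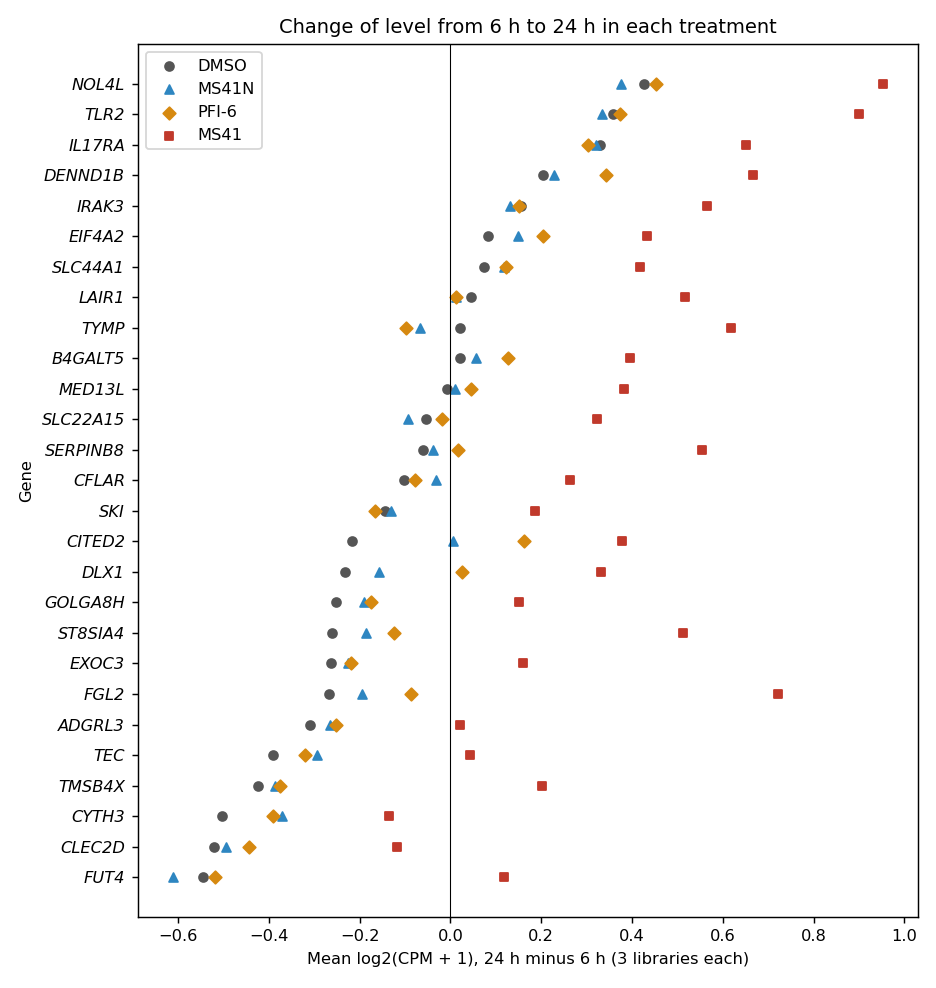
Change of mean log2(CPM + 1) from 6 h to 24 h (x axis, 3 libraries per mean) for each of 27 of the 28 genes (y axis, ordered by the change in DMSO), with 1 symbol per treatment. The MS41 square is the rightmost symbol in every row, and the DMSO change runs from -0.55 for FUT4 at the bottom to 0.43 for NOL4L at the top. The DMSO, MS41N and PFI-6 symbols stand farthest apart for CITED2 (-0.216, 0.005 and 0.161).

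Time in culture moved the members in both directions when no degrader was present. From 6 h to 24 h the median change was -0.081 with DMSO, -0.054 with MS41N, -0.003 with PFI-6 and 0.388 with MS41, beside 0.011, 0.003, -0.001 and -0.038 over eligible genes. With DMSO 8 members were higher at 24 h without overlap, 15 were lower and 5 overlapped (34.7% of eligible genes were higher and 30.8% lower). With MS41 24 were higher, 2 were lower and 2 overlapped (31.7% higher and 42.7% lower). Those selection libraries give no test. The lower pair with MS41 was CYTH3 and CLEC2D. MS41N libraries, which the selection did not use, gave one: 9 members rose and 12 fell between 6 h and 24 h, beside 17.9% and 15.5% of all genes (edgeR, adjusted p below 0.05). All genes here are 22711, with ones below the level asked of members, and the part of level in these shares was not tested.

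FUT4 fell by 0.59 ± 0.03 with MS41N (log2 fold change ± SE, n = 3 per time, edgeR adjusted p = 3.82e-22), CLEC2D by 0.49 ± 0.05 (edgeR adjusted p = 7.75e-12) and TMSB4X by 0.36 ± 0.03 (edgeR adjusted p = 8.94e-16). CYTH3 fell by 0.36 and TEC by 0.27. The largest rises were 0.42 ± 0.04 for NOL4L (edgeR adjusted p = 4.98e-11), 0.36 ± 0.03 for TLR2 (edgeR adjusted p = 1.18e-15), 0.35 for IL17RA, 0.26 for DENND1B and 0.18 for EIF4A2. FGL2 fell by 0.17 and ST8SIA4 by 0.16. The MS41 level of FUT4 at 24 h, 204.7 to 215.7 CPM, lay below the DMSO level at 6 h, 215.9 to 230.5 CPM. That of TMSB4X, 1266.0 to 1302.0 CPM, lay above the DMSO level at 6 h, 1214.0 to 1259.0 CPM. Over the set, MS41 at 24 h was above DMSO at 6 h without overlap in 17 members, below it in 6 and overlapping in 5 (41.1% and 40% of eligible genes were above and below). The selection used both of these groups, so the counts are no test.

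Loss of ENL by guide RNA, without any compound, left 7 members higher and none lower than the control guide (edgeR, 28 tested), beside 5.32% and 4.98% of 17984 genes. The 17984 genes include ones below the level asked of members, and the part of level in these shares was not tested. Without the filter on low counts 11 members were called higher and 1 lower, among 2803 genes in all. FGL2 stood at 119.0 and 124.6 CPM with the control guide, at 225.6 and 237.7 CPM with the first ENL guide and at 213.8 and 207.9 CPM with the second. It rose by 0.83 ± 0.07 (log2 fold change ± SE, n = 2 against 4, edgeR adjusted p = 1.35e-05). TLR2 stood at 110.6 and 104.8 CPM, then at 147.1 and 155.5 and at 137.4 and 152.0 CPM, a rise of 0.43 ± 0.06 (edgeR adjusted p = 0.00121). SERPINB8 stood at 98.09 and 104.5 CPM, then at 143.3 and 141.4 and at 138.6 and 132.3 CPM, a rise of 0.42 ± 0.07 (edgeR adjusted p = 0.0015). For these 3 genes both guides were above both controls, and the call held without any 1 library.

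TYMP rose by 0.58, FUT4 by 0.39, EIF4A2 by 0.23 and CITED2 by 0.22 (edgeR adjusted p = 0.0349, 0.0158, 0.0496 and 0.0441). FUT4 stood at 146.8 and 171.1 CPM with the control guide and at 201.5 to 219.6 CPM with the ENL guides, and lost its call without 1 library of the second guide (edgeR adjusted p = 0.0539). Its log2 fold change was 0.234 without control replicate 1 and 0.555 without control replicate 2. EIF4A2 and CITED2 each lost theirs in 5 of 6 such fits and TYMP in 2. ST8SIA4 stood at 57.83 and 50.43 CPM with the control guide, 58.75 and 54.93 with the first and 54.52 and 51.8 with the second ENL guide, a log2 fold change of -0.01 (95% interval -0.142 to 0.129). The 28 members had a median of 0.169, beside -0.002 over all genes tested and -0.041 over the eligible ones. The myeloid maturation list had 23 higher and 0 lower of 37 other genes tested. The summed stromal and endothelial markers, mostly PECAM1, were 118.2 to 136.5 CPM with the control guide and 175.0 to 186.2 CPM with ENL guides, and their part in these results was not tested.

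**Figure D5:**
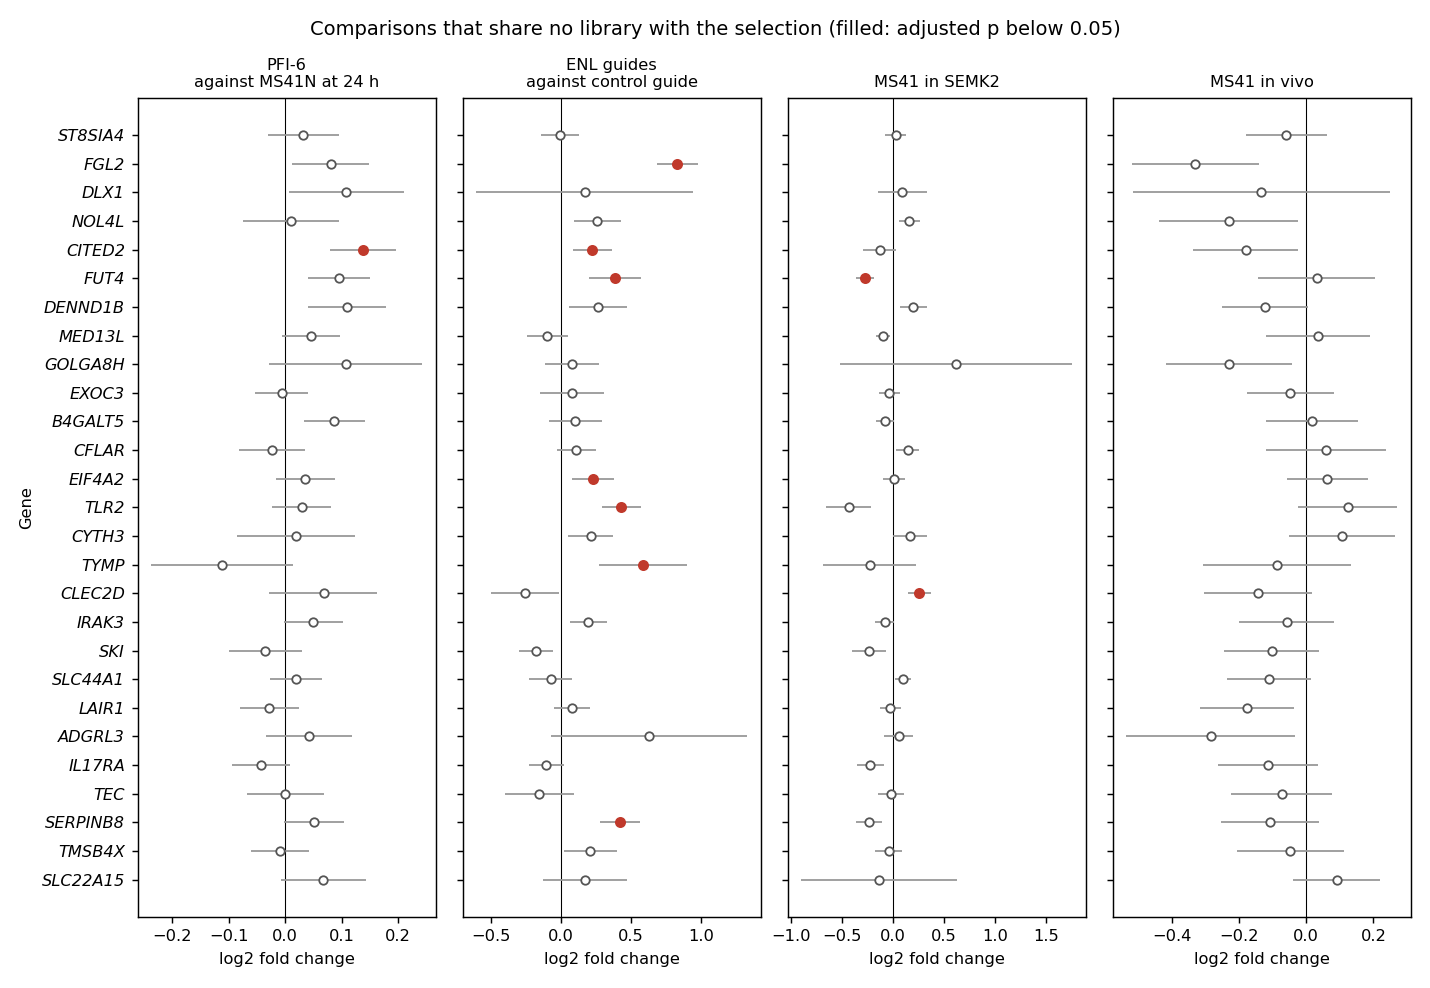
log2 fold change with its 95% interval (x axis, edgeR, scale differs by panel) of each of 27 of the 28 genes (y axis) in 4 comparisons that share no library with the selection, filled red where the adjusted p was below 0.05. Filled points are CITED2 for PFI-6, 7 genes to the right of 0 for the ENL guides, FUT4 (left) and CLEC2D (right) in SEMK2, and none in vivo, and FGL2 has no point in SEMK2, where it was too low to test.

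In SEMK2 cells treated with MS41 the members did not move together: 12 fold changes were above 0 and 15 below, with a median of -0.029. These include GOLGA8H, SLC22A15 and TYMP, which were near the floor at DMSO means of 0.07, 0.42 and 0.86 CPM. By edgeR, 11 of 27 members and 2778 of 21433 genes had an unadjusted p under 0.05. FUT4 stood at 65.92, 66.9 and 65.45 CPM with DMSO and at 54.63, 55.97 and 54.16 CPM with MS41, a fall of 0.27 ± 0.04 (log2, SE, n = 3 per group, edgeR adjusted p = 0.00361). CLEC2D stood at 66.06, 62.43 and 70.03 CPM with DMSO and rose to 76.9, 78.57 and 82.94 CPM, by 0.26 ± 0.05 (edgeR adjusted p = 0.0238). Over all genes 0.84% were called higher and 0.518% lower. The count was unsteady: without 1 DMSO library, replicate 3, 11 members were called (4 higher and 7 lower) among 2986 genes in all, and without 1 MS41 library, replicate 3, 0 were among 100. With every library 291 genes were called. That DMSO library stood apart from the other two, with a chi-square per gene of 50.66 and 56.43 against them and 11.14 between them. The FUT4 call was lost in that last fit alone (edgeR adjusted p = 0.0522), and the CLEC2D call in 5 of 6 such fits. ST8SIA4 stood at 36.77 to 37.75 CPM with DMSO and at 36.37 to 39.35 CPM with MS41, a log2 fold change of 0.02 (95% interval -0.083 to 0.127). FGL2 was at or below 1.219 CPM in all 6 libraries and was not tested. TLR2 was also low, at 6.833 to 8.607 CPM with DMSO and 5.247 to 6.078 CPM with MS41, and its -0.44 missed the threshold (edgeR adjusted p = 0.0568). The effects in SEMK2 and MV4;11 come from separate tables and their difference was not tested.

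In the in vivo libraries no member was called by edgeR or DESeq2 (28 tested, 0.0328% of genes called by edgeR, 6 members and 1623 of 21337 genes with an unadjusted p under 0.05). Of the 28 fold changes 9 were above 0 and 19 below, with a median of -0.08, beside 0.007 over eligible genes. FGL2 had the lowest log2 fold change of the 28, -0.33 (95% interval -0.519 to -0.139, edgeR adjusted p = 0.462), at 111.6, 100.7 and 119.7 CPM with vehicle and 87.81, 96.74 and 81.29 CPM with MS41. The MS41 libraries were thus below the vehicle libraries for FGL2 without a call across all genes. ST8SIA4 (-0.06, 95% interval -0.179 to 0.061) and FUT4 (0.03, -0.144 to 0.206) lay near 0. The deposited in vivo values had been adjusted by replicate number, and the fit has 2 residual degrees of freedom. Its intervals also use spread pooled across genes and are to be read with caution.

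Gene structure was not used in the selection. The median 3′ UTR of the annotated transcript was 3364 bases in members and 1436 in eligible genes, and 20 of 28 members were above the eligible median. The longest was that of CFLAR (12717 bases), followed by SLC44A1 (8293), ADGRL3 (8169) and MED13L (7397). TYMP (21) and GOLGA8H (3) had the shortest. Members were also more abundant, at a median of 163.5 CPM against 47.44, and the part of level in the difference in length was not tested. By band of level the medians were 2949 against 1277 bases at 8 to 50 CPM (7 members), 5315 against 1637 at 50 to 150 CPM (6 members) and 3370 against 1646 above 150 CPM (15 members). The median gene length was 55220 against 35050 bases and the median transcript length 4812 against 3597 bases, with 20 of 28 members above the eligible median for the transcript. Coding length was 1518 against 1404 bases, exon number 10 against 10 and GC content 44.25% against 47.21%. The 28 genes lay on 17 chromosomes with at most 3 on any 1. These medians are descriptions of genes picked on expression, with no test.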

How the data were processed

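RNA-seq tables of 42 libraries in 15 groups were used. The deposited values of the MV4;11 compound, SEMK2 and guide tables are raw read counts per gene, made with CASAVA 1.8, HISAT2 2.1.0 and HTSeq 0.11.3 on hg38, per the submitters' processing notes, and the strand setting is not given in the sources used here. The deposited in vivo values are expected counts that the authors had adjusted by replicate number, as the values themselves show (median SD of 0.001297 over 15554 genes for matching numbers), in a step the sources used here do not describe. They are whole numbers as deposited, so rounding before fitting left them as they were.

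Genes were annotated with GENCODE release 29. The members and gene lists were chosen with earlier results of these data known. Selection used CPM by library total. Tests used edgeR 4.0.16 (quasi-likelihood, robust, TMM scaling, filterByExpr, Benjamini-Hochberg adjustment over all genes, threshold 0.05) in R 4.3.3, with limma 3.58.1 loaded and DESeq2 1.42.0 as an alternative. The in vivo fit held a replicate term. Each fit was tested on simulated data. Alternatives covered scaling, the low-count filter, GC content, the replicate block and each library left out. Comparisons with the DMSO or MS41 culture groups of the selection carry no test for members.

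Named genes were FGL2, ST8SIA4, FUT4, the 15 members with the largest smaller difference, up to 5 called members per direction in each comparison, list members, the genes at the threshold and MLLT1. Other members were named after their values were seen. One member, and a few other genes that the rule names, are not reported here by name or plotted, but stay in all counts, medians and fits. Promoters came from RefSeq. Figures used matplotlib 3.10.9.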

Additional observations from a re-analysis of the deposited data

How the results depend on the processing

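No fold change of a called member changed sign under the alternatives run, while splits of calls over all genes did move. For PFI-6 against MS41N at 24 h, DESeq2 called 2 members in place of 1 (183 genes in all in place of 24; 189 with no filter and 8 with the GC trend removed), and fits without 1 library called 0 to 1. In SEMK2, where edgeR called 2, no filter on low counts gave 6, DESeq2 7, removal of the GC trend 8 and fits without 1 library 0 to 11. Over all SEMK2 genes the calls were 291, and 912, 743 and 920 under those 3 settings, and the share called higher went from 61.9% to 46.6%, 52.1% and 55.7%. For the ENL guides, where edgeR called 7, all higher, no filter gave 12 (11 higher and 1 lower). DESeq2 gave 9 and the GC setting 9, all higher. Genes called in all were 1853, and 2803, 2202 and 1739 under those 3 settings. In vivo, no filter gave 2 members where edgeR gave 0, and 184 genes in place of 7, while DESeq2 gave 70. For MS41N over time 18 to 21 members were called without 1 library, and the share of all calls that were higher was 53.6%, and 45.9% with the GC trend removed. Of 31 called member results, 31 were kept with DESeq2, 30 without the filter and 30 with the GC setting, B4GALT5 over time being the one lost. The cause of these differences was not tested.

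The replicate numbers are not stated to pair libraries, and the correlation of same-numbered deviations was -0.037 to 0.017 for the compounds, -0.007 to 0.021 in SEMK2, 0.021 to 0.238 for the guides and -0.844 to -0.762 in vivo, where the deposited values had been adjusted by that number. With a replicate block, 5 members were called in SEMK2 (662 genes in all) and 14 for the guides (3203 genes, 1 of the 14 members lower). With the block and the GC trend removed 8 and 13 were called (1046 and 3033 genes). With no replicate block in vivo, 0 members and 523 genes were called.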
